A study of Mus musculus with 9 samples.

Results

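TRP channels, acid-sensing ion channels and HCN channels are cation channels through which cells turn temperature, chemicals, acid, stretch or membrane voltage into electrical and calcium signals. Transcripts of 34 of their genes were examined in Merkel cells, which sense touch in the skin, and in basal keratinocytes, the dividing cells of its lowest layer. The genes were taken by symbol from a table of 49672 rows: 27 of the TRP superfamily, 4 of the acid-sensing family (Asic) and 3 of the HCN family. All 34 were found. Cells were sorted by flow cytometry from the epidermis of newborn (postnatal day 0) mice of a single strain, Sox2-GFP reporter mice, with no other treatment or genotype. GFP-positive cells were taken as Merkel cells (3 libraries). GFP-negative cells positive for SCA1 and CD49F were taken as basal keratinocytes (6 libraries). A sample number (1 to 3) covers 1 library of Merkel cells and a pair of basal libraries, named first and second after their labels. The labels do not say how the pair differs or whether a number is 1 animal or a pool. The Sox2 reporter limits the Merkel group, since any other epidermal cell with GFP would be sorted with it.

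TRP channels are built of subunits with 6 membrane-spanning segments, and most let calcium and sodium into the cell. Families differ in what opens them: TRPC channels follow phospholipase C signalling, several TRPV and TRPM channels and TRPA1 sense heat, cold or irritants, mucolipins work in endosomes and lysosomes, and polycystins in cilia. Acid-sensing channels are sodium channels opened by protons and belong to the same superfamily as the epithelial sodium channel. HCN channels open when the membrane becomes more negative, are made more active by cyclic AMP, and set rhythm and resting potential in heart and neurons. Keratinocytes are known for TRPV3 and TRPV4, and the touch response of Merkel cells is known to need another channel, Piezo2.

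The values are TPM, a transcript abundance corrected for transcript length and brought to a common total per library, so levels of different genes can be compared. Read depth is unknown, and low values are the least precise. The labelled cell types fitted their own markers: all 11 Merkel cell markers on the list used here were higher in Merkel libraries, and 8 of 10 basal markers were lower. Merkel libraries still held much keratinocyte RNA. Krt5 was at 2263 ± 124 TPM in them against 6130 ± 226, and Krt14 at 2187 ± 119 against 7731 ± 279 (SD, n = 3). Of 8 suprabasal keratinocyte markers limma called 0, with Krt1 at 3360 ± 1226 TPM in Merkel against 3341 ± 1052 in basal cells. The part of this RNA in the channel results was not tested. Sox2 (the reporter gene), Ly6a (SCA1) and Itga6 (CD49F) are genes of the sort itself and no independent check. Krt20, Atoh1, Pou4f3, Isl1, Insm1, Sox2, Chga and Cck, under 1 TPM in every basal library, were tested only through their Merkel values. Small and structural RNAs took 51.64% of TPM in Merkel replicate 2 and between 37.76% and 43.95% in the other libraries. Merkel replicate 2 was the lowest of the 3 Merkel libraries for 12 of the 15 channel genes tested, and for 72% of all tested genes.

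Promoters are shown for 4 channel genes on which the results turn: Hcn2 and Asic2, transcripts of Merkel libraries, and Mcoln3 and Trpm1, whose levels differed between first and second basal libraries. Each is the 250 bases before a RefSeq start on build GRCm38.p6 (the coordinates of mm10), read 5′ to 3′ on the gene's strand, and 28 of the 34 genes had an entry. Capitals mark E-box letters, the kind of site that Atoh1 and the melanocyte regulator Mitf bind. Letters searched on both strands were CAGCTG with CATCTG on one hand, typical of the first factor, and CACGTG with CATGTG on the other, typical of the second. None of the matches shown overlaps another.
Hcn2, chr10:79716384-79716633, plus strand: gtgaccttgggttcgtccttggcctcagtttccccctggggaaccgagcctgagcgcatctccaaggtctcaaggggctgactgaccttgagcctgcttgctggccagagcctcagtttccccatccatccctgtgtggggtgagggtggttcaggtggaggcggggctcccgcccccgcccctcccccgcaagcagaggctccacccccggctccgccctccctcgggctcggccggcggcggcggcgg
Asic2, chr11:81968397-81968646, minus strand: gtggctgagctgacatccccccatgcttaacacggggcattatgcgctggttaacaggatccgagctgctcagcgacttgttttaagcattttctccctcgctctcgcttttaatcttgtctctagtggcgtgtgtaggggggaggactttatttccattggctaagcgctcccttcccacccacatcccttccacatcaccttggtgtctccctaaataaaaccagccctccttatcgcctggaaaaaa
Mcoln3, chr3:146121541-146121790, plus strand: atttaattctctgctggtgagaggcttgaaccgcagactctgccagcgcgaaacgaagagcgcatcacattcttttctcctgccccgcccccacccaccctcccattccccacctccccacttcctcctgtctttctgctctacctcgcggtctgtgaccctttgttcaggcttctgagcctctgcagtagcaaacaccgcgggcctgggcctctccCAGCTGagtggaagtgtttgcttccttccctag
Trpm1, chr7:64153585-64153834, plus strand: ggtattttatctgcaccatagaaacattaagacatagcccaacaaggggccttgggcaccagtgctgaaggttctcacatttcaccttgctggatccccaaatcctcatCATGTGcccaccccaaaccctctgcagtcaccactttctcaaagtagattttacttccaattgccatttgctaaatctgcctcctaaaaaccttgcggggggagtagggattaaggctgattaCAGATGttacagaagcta
Hcn2 and Asic2 held none of these letters in this window. Mcoln3 held 1 CAGCTG, which begins 33 bases before the start and is found in 13% of all 32851 promoter windows. Trpm1 held 1 CATGTG beginning 141 bases before the start (12.3% of windows) and 1 CAGATG, the other strand of CATCTG, at 18 bases (14.4% of windows). The Hcn2 window is 70.4% G and C with 16 CpG, that of Trpm1 46% with 1 CpG, against medians of 52.4% and 6 over all windows. The base composition of Asic2 (51.2%, 9 CpG) and Mcoln3 (58%, 10 CpG) lay between them. Asic2 has 2 RefSeq starts 815 kb apart and Trpm1 has 2 that lie 31.6 kb apart, and the start nearest the GENCODE gene start was taken. The Mcoln3 start lies inside the span that GENCODE gives the gene. The values below are sums per gene and do not tell the starts apart.

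Merkel cells were set against basal keratinocytes to ask which channel genes differ between them. The 2 basal libraries of a sample number were averaged on the log2(TPM + 1) scale, and limma was run on genes that reached 1 TPM in 3 or more of the 6 resulting values. Calls need a log2 fold change of at least 1 in either direction together with a limma adjusted p below 0.05. Of the 34 channel genes 15 were tested, and 5 of them were higher in Merkel cells: Asic1, Asic2, Asic4, Hcn2 and Mcoln3. Of all 13822 tested genes 6.79% were called higher and 5.27% lower. Asic2, Asic4 and Hcn2 were under 1 TPM in every basal value and so were tested only because all Merkel values reached 1 TPM, which nearly sets their call. Asic1 also needed its Merkel values to be tested, since its basal libraries ran from 0.61 to 1.07 TPM with a median of 0.94. None of the 15 was called lower by limma, although 7 lay below 0 at an unadjusted p under 0.05. Of all tested genes 49.6% had an unadjusted limma p under 0.05, in either direction, so such values are common here. The median log2 fold change was -0.03 for the 15 channel genes and -0.15 for all tested genes. Median-ratio scaling of the libraries moved the latter to 0.02, and fold changes near 0 are best read against that shift. That scaling gave 1091 genes higher and 442 lower in place of 938 and 729. Against the first basal libraries alone 5 of 15 tested channel genes were higher and 1 lower, where 7.43% and 7.24% of all tested genes were. Against the second alone 4 of 14 were higher and 0 lower by limma, where 6.5% and 5.2% were. Both contrasts use the same Merkel libraries.

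**Figure D1:**
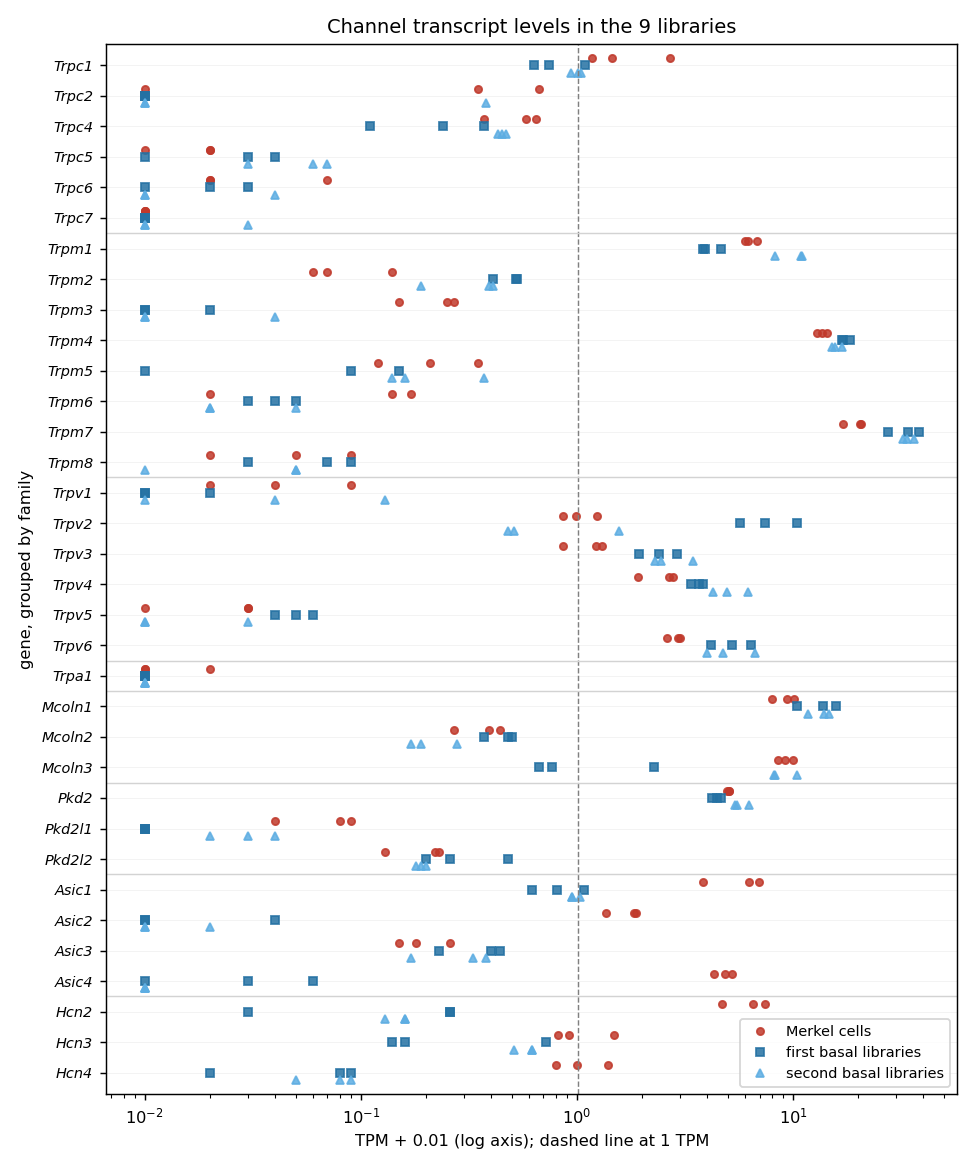
TPM of the 34 channel genes in each of the 9 libraries, with 0.01 added so that 0 can be drawn on the log axis; points are libraries (Merkel, first basal and second basal) and the dashed line marks 1 TPM. Asic2, Asic4, Hcn2 and Hcn4 lie far to the right in Merkel cells, Trpv2 stands to the right only in first basal libraries, and 17 genes stay below 1 TPM in every library.

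Of the 4 acid-sensing channel genes 3 were tested, and all 3 were higher in Merkel cells. Asic1, whose product is the main proton-gated subunit of the brain, was at 6.27, 3.82 and 6.92 TPM in Merkel libraries 1 to 3. In the 6 basal libraries it ran from 0.61 to 1.07 TPM with a median of 0.94. No basal library came near the lowest Merkel library. The log2 fold change was 1.79 ± 0.19 (SE, 3 against 3 values, limma adjusted p = 0.00015), from a mean of 5.67 ± 1.64 TPM against 0.897 ± 0.137 (SD, n = 3). Asic1 lies on chromosome 15 from 99670368 to 99701130 (mm10, plus strand).

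Asic4, an acid-sensing family member that does not form a proton-gated channel on its own, was at 5.20, 4.31 and 4.85 TPM in Merkel libraries. Of the 6 basal libraries, 2 of the first set were at 0.05 and 0.02 TPM and the other 4 were listed at 0. The gene was thus close to absent from the basal values and even across the Merkel libraries. Its log2 fold change was 2.51 ± 0.12 (SE, limma adjusted p = 1.2e-06). It lies on chromosome 1 from 75450436 to 75474343 on the plus strand.

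Asic2, a subunit that combines with other acid-sensing subunits and changes their response, was lower in level, at 1.86, 1.36 and 1.83 TPM in Merkel libraries. The basal libraries ran from 0 to 0.03 TPM, with 4 of 6 listed at 0. Its log2 fold change was 1.41 ± 0.13 (SE, limma adjusted p = 5.4e-05). The gene spans chromosome 11 from 80880169 to 81968457 on the minus strand. Asic3, known from sensory neurons that respond to acid, did not share the pattern: its Merkel values (0.14 to 0.25 TPM) overlapped its basal values (0.16 to 0.43 TPM), and was too low to test. Within Merkel libraries Asic1 and Asic4 overlapped in level, and both lay above Asic2. The 4 genes together held 9.66 to 13.85 TPM in Merkel libraries, 1.03 to 1.34 in first and 1.1 to 1.39 in second basal libraries.

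Of the 3 HCN genes 1 was tested, and it was higher in Merkel cells. Hcn2, a voltage- and cyclic AMP-gated channel of heart and sensory neurons, was at 6.55, 4.70 and 7.39 TPM in Merkel libraries. The 6 basal libraries lay between 0.02 and 0.25 TPM with a median of 0.15. The groups were far apart, with a ratio of means of 39.7. Its log2 fold change, 2.63 ± 0.16 (SE, limma adjusted p = 5.1e-06), stood above that of Asic4 on this scale, but below it with a pseudocount of 0.1 (4.68 against 5.47) and with TPM over protein-coding genes (3.40 against 3.42). Hcn2 lies on chromosome 10 from 79716634 to 79736108 on the plus strand.

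Hcn4, the main pacemaker channel of the heart, fell below the level for testing. Merkel libraries held 1.39, 0.79 and 0.99 TPM of it and basal libraries 0.01 to 0.08, so the groups did not overlap. Hcn3 was at 1.48, 0.81 and 0.91 TPM in Merkel libraries. Basal libraries held 0.13 to 0.71 TPM of it, just under the lowest Merkel library. With TPM rescaled over protein-coding genes Hcn4 was tested and called higher (1.4997 ± 0.15, limma adjusted p = 0.00038). It was tested there only through its Merkel values, which nearly sets its call. That scaling had 6 of 17 tested channel genes higher, and 1303 of all 15627 tested genes. With no filter on low values and a pseudocount of 0.1, a setting chosen after seeing the data, the log2 fold change of Hcn4 was 2.86 ± 0.30 (limma, called) and that of Hcn3 1.20 ± 0.38 (not called). In that setting 6.99% of 28451 genes were called higher and 7.83% lower. The 3 HCN genes summed to 6.30 to 9.42 TPM in Merkel libraries, against 0.23 to 1.03 in the basal ones, with Hcn2 the most abundant in each Merkel library.

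**Figure D2:**
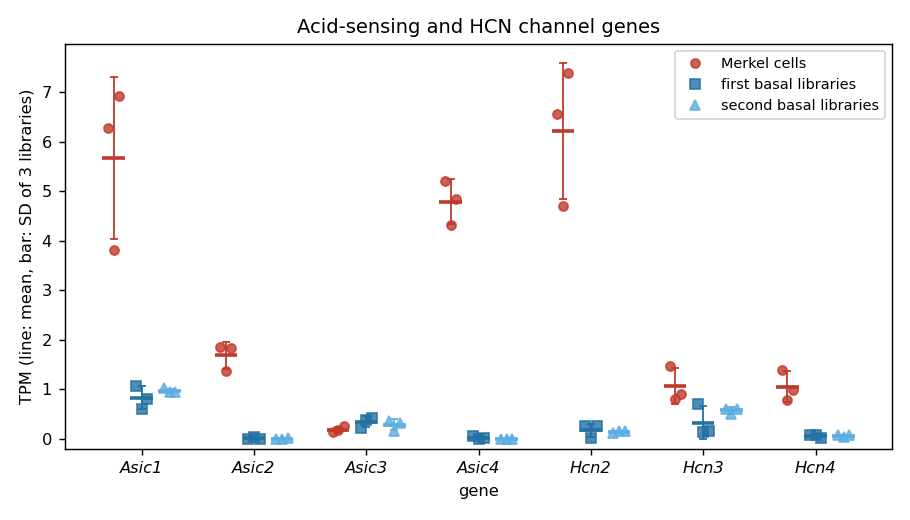
TPM of the acid-sensing and HCN channel genes by library; points are libraries, lines are means and bars SD over the 3 libraries of each kind. Asic1, Asic2, Asic4, Hcn2 and Hcn4 of Merkel cells stand apart from both sets of basal libraries, while Asic3 stays below 0.5 TPM throughout.

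The values of Asic1, Asic2, Asic4 and Hcn2 were close with either set of basal libraries, in which the last 3 were near 0. Against the first basal libraries alone their log2 fold changes were 1.84, 1.40, 2.50 and 2.61, and against the second alone 1.73, 1.41, 2.53 and 2.64. Leaving out any 1 sample value gave 1.65 to 2.01, 1.36 to 1.5, 2.46 to 2.57 and 2.51 to 2.79, and each stayed called. In bulk RNA a difference in the share of cells and a difference in RNA per cell cannot be told apart. Markers of other cells stood beside these genes: of 11 markers for fibroblasts or papilla cells of the dermis, 8 were higher in Merkel libraries, among them Corin (9.06 ± 1.1 against 0.120 ± 0.0150 TPM, SD, n = 3). Without Dcn and Vim, which carry most of the total and were not higher in Merkel cells, the other 9 summed to 101 to 125 TPM in Merkel, 3.07 to 4.9 in first basal and 8.19 to 12.2 in second basal libraries. All 11 together summed to 302 to 470, 387 to 904 and 262 to 361 TPM. Of 8 melanocyte markers 5 were higher in Merkel cells (Dct, Pmel, Tyr, Tyrp1 and Mlana), and so were Kit and S100b from the mast cell and Schwann cell lists. The part of these cells in the channel results was not tested. Corin, Col1a1, Pdgfra, Crabp1, Sox18, Alx4 and S100b, under 1 TPM in every basal library, were tested only through their Merkel values. That nearly sets their call. Col3a1, with basal libraries from 0.55 to 1.37 TPM, also needed its Merkel values to be tested. Over all tested genes 6.79% were called higher. Neurons of the skin also carry acid-sensing and HCN channels. Of 7 sensory neuron markers Scn10a and Scn9a were under 0.1 TPM in every library, Nefl and Nefm were at most 0.15, and only Snap25, a gene of secretory cells too, exceeded 1 TPM (9.82 ± 2.43 in Merkel libraries).

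The partners of these channels, from lists of pathway genes, were mixed. Of 10 HCN partners and adenylyl cyclases, the enzymes that make cyclic AMP, 5 were tested, 1 was higher and 1 lower. The calcium-stimulated cyclase Adcy1 was at 17.3 ± 3.96 TPM in Merkel cells against 0.130 ± 0.0132 (log2 fold change 3.995 ± 0.17, limma adjusted p = 6.4e-07). Its basal libraries were at 0.09 to 0.17 TPM, so Adcy1 was tested only through its Merkel values, which nearly sets its call. Adcy3 was lower, at 6.61 ± 0.738 against 14.9 ± 0.515 TPM (-1.07 ± 0.12), and at -0.89 with median-ratio scaling, short of the limit. Pex5l, the auxiliary subunit of HCN channels also called TRIP8b, was not tested and was at 0.403 ± 0.210 TPM against 0.0183 ± 0.0176. Adcy2, Adcy5 and Adcy8, untested too, were at 0.843, 0.21 and 0.403 TPM in Merkel cells against 0.217, 0.035 and 0.0217. Every Merkel library lay above every basal library for 5 of the 10 genes and below for 1. Of genes above 0 in any library 9.55% lay above and 16.8% below. Of 9 epithelial sodium channel genes and partners of acid-sensing channels 7 were tested and limma called 0. Of these 2 were at an unadjusted p under 0.05, Stom (-0.57) and Stoml1 (-0.47), as were 49.6% of all tested genes. Among the tested members the median log2 fold change was -0.33 for the first list and 0.10 for the second, against -0.15 for all tested genes.

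The most abundant TRP genes lay below their basal level in Merkel cells, by less than the 2-fold limit for a call. Trpm7, a magnesium- and calcium-permeable channel with its own kinase, was at 20.43, 17.07 and 20.57 TPM in Merkel libraries. Basal libraries ran from 27.57 to 38.16 TPM with a median of 33.9, all above the highest Merkel library. Its log2 fold change was -0.77 ± 0.13 (SE, limma adjusted p = 0.0018), too small to be called. Trpm4, a channel opened by calcium that passes sodium but not calcium, was at 14.36, 12.87 and 13.65 TPM against 15.12 to 18.42 in basal libraries (-0.27 ± 0.11, limma adjusted p = 0.089). Trpm4 overlaps Rpl14-ps1, a pseudogene of the other strand with 14.87 TPM in Merkel and 11.95 TPM in basal libraries.

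The TRPV channels of keratinocytes had the same direction. Trpv3, a warmth-sensing channel typical of keratinocytes, was at 0.85, 1.30 and 1.21 TPM in Merkel libraries and at 1.93 to 3.42 in basal libraries (median 2.42). Trpv4, opened by warmth and cell swelling, was at 2.77, 1.91 and 2.67 TPM against 3.35 to 6.15 (median 4.03). Trpv6, a calcium-selective channel of epithelia, was at 2.93, 2.60 and 2.99 TPM against 3.97 to 6.69 (median 4.98). For each of the 3 genes every Merkel library was below every basal library. The log2 fold changes were -0.74 ± 0.16, -0.62 ± 0.15 and -0.67 ± 0.16 (SE, limma adjusted p = 0.0050, 0.0096 and 0.0084), and none reached the limit for a call. With a pseudocount of 0.1 Trpv3 was at -1.12 and was called lower.

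Mcoln1, the lysosomal calcium release channel, was at 10.12, 7.95 and 9.35 TPM in Merkel libraries and at 10.47 to 15.84 in basal libraries. The groups were close but did not overlap (log2 fold change -0.50 ± 0.15, limma adjusted p = 0.027), and with median-ratio scaling the value was -0.32. Pkd2, the ciliary polycystin, was even across the groups, at 4.95 to 5.06 TPM in Merkel and 4.20 to 6.27 in basal libraries (-0.01 ± 0.12, SE). Trpc1, a subunit of receptor-operated channels, was at 2.69, 1.16 and 1.44 TPM in Merkel libraries against 0.62 to 1.08 (0.51 ± 0.20, limma adjusted p = 0.067), and its value was 0.28 without Merkel replicate 1.

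**Figure D3:**
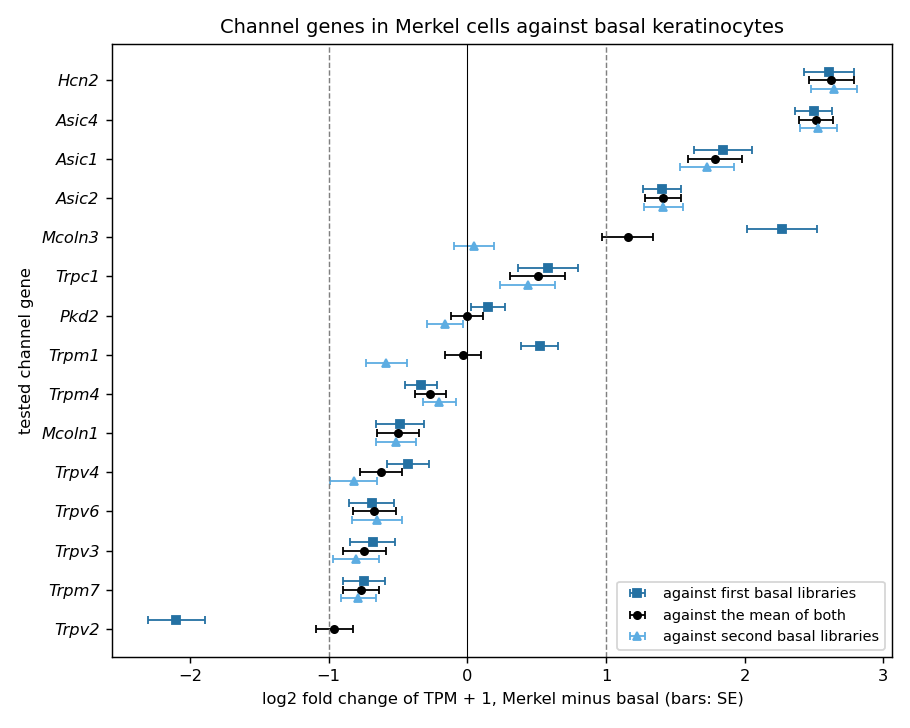
Log2 fold change of TPM + 1, Merkel minus basal, with its SE, for the 15 tested channel genes, against the mean of both basal libraries, the first alone and the second alone; dashed lines mark a 2-fold change. Hcn2, Asic4, Asic1 and Asic2 stay beyond 1 in all 3 fits, while Mcoln3, Trpm1 and Trpv2 shift with the basal libraries; Trpv2 was too low to be tested against the second.

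Over all 34 genes, Merkel libraries lay above every basal library in 8 and below every one in 7, or 23.5% and 20.6%. Of the 28451 genes above 0 in any library 9.55% lay above and 16.8% below in this way. The 8 were Trpc1, Trpm3, Asic1, Asic2, Asic4, Hcn2, Hcn3 and Hcn4. The 7 were Trpm2, Trpm4, Trpm7, Trpv3, Trpv4, Trpv6 and Mcoln1.

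Genes upstream of TRPC channels followed. Of 12 genes of Gq proteins and phospholipase C, which produce the lipid and calcium signals that open TRPC channels, 11 were tested and 2 were lower. Gna14 was at 2.95 ± 0.436 TPM in Merkel cells against 9.38 ± 0.629 (SD, n = 3) and Gna15 at 8.16 ± 1.66 against 18.5 ± 3.32. Their log2 fold changes were -1.39 ± 0.13 and -1.03 ± 0.18 (SE, limma adjusted p = 7.6e-05 and 0.0022). Gna15 fell short of the limit against the second basal libraries alone (-0.59), with median-ratio scaling (-0.85), and without Merkel replicate 1 or basal replicate 2 (-0.88 each). Of 8 genes of store-operated calcium entry and IP3 receptors 1 was lower, Itpr2 (9.82 ± 1.64 against 21.95 ± 0.909 TPM, log2 fold change -1.09 ± 0.14), which was at -0.95 against the second basal libraries and -0.91 with median-ratio scaling. The median log2 fold change was -0.53 for the Gq list and -0.15 for the store-operated list.

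Of 13 TRP scaffolds and regulators 9 were tested and 1 was higher: the scaffold Homer2, at 11.4 ± 1.83 TPM in Merkel cells against 2.20 ± 0.668 (log2 fold change 1.97 ± 0.19, limma adjusted p = 7.4e-05). The most abundant, Anxa2, had 721 ± 101 TPM in Merkel cells against 1129 ± 48.8, with no call. Pirt, a regulator of TRPV1 and TRPM8 in sensory neurons, was untested at 0.50, 0.55 and 0.56 TPM in Merkel libraries, while 5 of 6 basal libraries were at 0 and the remaining one at 0.01. Limma called 0 of 4 tested kinases that make the membrane lipid PIP2 and 0 of 1 tested polycystin-1 relative (Pkd1, 4.66 ± 0.662 against 5.97 ± 0.321 TPM). Only 1 gene, Pip5k1c (-0.56), was at an unadjusted p under 0.05, as were 49.6% of all tested genes.

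A second comparison set the second against the first basal libraries, to see how far channel levels varied within the control group. Of 11 channel genes tested, 2 were higher in the second libraries, Mcoln3 and Trpm1, and 1 was lower, Trpv2. Among all 13477 tested genes 0.675% were called higher and 3.67% lower. Without basal replicate 1 or 3 limma called only 5 and 2 genes in the whole table, and 0 channel genes. The folds kept their size: without replicate 1 and without replicate 3 they were 2.10 and 2.14 for Mcoln3, 1.11 and 1.006 for Trpm1, and -1.94 and -2.17 for Trpv2, with limma adjusted p between 0.0749 and 0.187.

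Mcoln3, a mucolipin of endosomes whose mutations in mice cause deafness and coat colour loss, was at 8.21, 10.42 and 8.18 TPM in second and 0.66, 2.26 and 0.76 TPM in first basal libraries. The sets did not overlap, and the Merkel libraries (9.95, 8.55 and 9.19 TPM) lay within the range of the second. The log2 fold change of second against first was 2.22 ± 0.27 (SE, limma adjusted p = 0.0048). Its call as higher in Merkel cells (1.16 ± 0.18, limma adjusted p = 0.0012) therefore rests on the first basal libraries: the value was 2.27 against those and 0.05 against the second. With all 9 libraries in 1 fit and the sample number as a random block the value was 1.16 ± 0.64 and not called.

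Trpm1, a channel of melanocytes and retinal bipolar cells that carries the microRNA gene Mir211 in an intron, was at 10.98, 8.24 and 10.89 TPM in second and 4.61, 3.89 and 3.81 TPM in first basal libraries. Merkel libraries, at 5.97, 6.18 and 6.79 TPM, lay between them. Second against first gave 1.11 ± 0.14 (SE, limma adjusted p = 0.0058), while Merkel against the mean of both gave -0.03 ± 0.13. The Merkel value turned from 0.52 against the first to -0.59 against the second libraries, neither of them called.

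Melanocyte markers and some hair follicle markers moved with Mcoln3 and Trpm1 between the basal libraries. Of 8 melanocyte markers, 7 were called higher in the second libraries and all 8 stood above every first library, as did 11.8% of genes above 0 in a basal library. Their summed level was 110 to 159 TPM in second, 16.4 to 35.8 in first basal and 155 to 220 in Merkel libraries. Dct, the most abundant, was at 53.14, 68.29 and 47.00 TPM in second, 10.01, 14.71 and 5.54 in first basal and 87.84, 63.28 and 74.60 in Merkel libraries. Against the second basal libraries, Merkel libraries overlapped in the marker sum, were level in Mcoln3 and lay below in Trpm1. Mean Mitf and Sox10 were lower in Merkel libraries (6.68 and 4.39 TPM) than in second basal libraries (7.14 and 5.33), and the other markers had higher means. Of 8 hair follicle markers 3 were called higher in the second libraries (Lhx2, Sox9 and Krt17), 1 was lower (Krt71) and 4 stood above every first library. Krt17 had a mean of 732 TPM in first and 1705 TPM in second basal libraries. The part of melanocytes or follicle cells in these results was not tested.

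Trpv2, a channel of macrophages and of some sensory neurons, had the opposite course. It was at 10.42, 5.68 and 7.44 TPM in first and 0.47, 1.55 and 0.50 TPM in second basal libraries, a log2 fold change of -2.28 ± 0.28 (SE, limma adjusted p = 0.0050). Merkel libraries, at 0.98, 0.85 and 1.23 TPM, lay far below the first and overlapped the second. Merkel against the mean of both was -0.96 ± 0.14 (SE, limma adjusted p = 0.00064), just short of a call. It was -1.19 with a pseudocount of 0.1 and -1.03 over protein-coding genes, both called lower, whereas all 9 libraries in 1 fit with the random block gave -0.96 ± 0.66 (adjusted p = 0.266). Its value was -2.10 with the first libraries alone as controls (called lower), and it passed the limit without Merkel replicate 3 or basal replicate 3 (-1.03 each).

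Macrophage and Langerhans cell markers moved with Trpv2. Of 7 markers, 4 were called lower in the second basal libraries and 6 lay below every first library, as did 7.69% of genes above 0 in a basal library. They summed to 753 to 1398 TPM in first, 51.8 to 343 in second basal and 55.4 to 196 in Merkel libraries. Csf1r, the receptor that macrophages need, was at 161.94, 69.16 and 121.17 TPM in first and 8.97, 13.38 and 6.81 in second basal libraries. Second basal library 2 had the highest Trpv2 and the highest marker sum of its set, but the lowest Adgre1 and Lyz2. Among first libraries the sum was carried by Cd74 and H2-Ab1 and was lowest in number 1, whereas Csf1r, Adgre1, Lyz2 and Ptprc, like Trpv2, were highest there and lowest in number 2. Pathway genes of the phospholipase list with the same course were Plcb2 (4.59 ± 0.416 in first against 0.480 ± 0.182 TPM in second basal libraries, log2 fold change -1.92) and Plcg2 (19.4 ± 3.06 against 5.13 ± 1.02, -1.74), and of the cyclase list Adcy7 (13.1 ± 1.76 against 4.80 ± 0.760, -1.28). Higher in the second libraries were Plcb1 (1.07) and Scnn1g (1.09). The part of immune cells in these results was not tested.

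**Figure D4:**
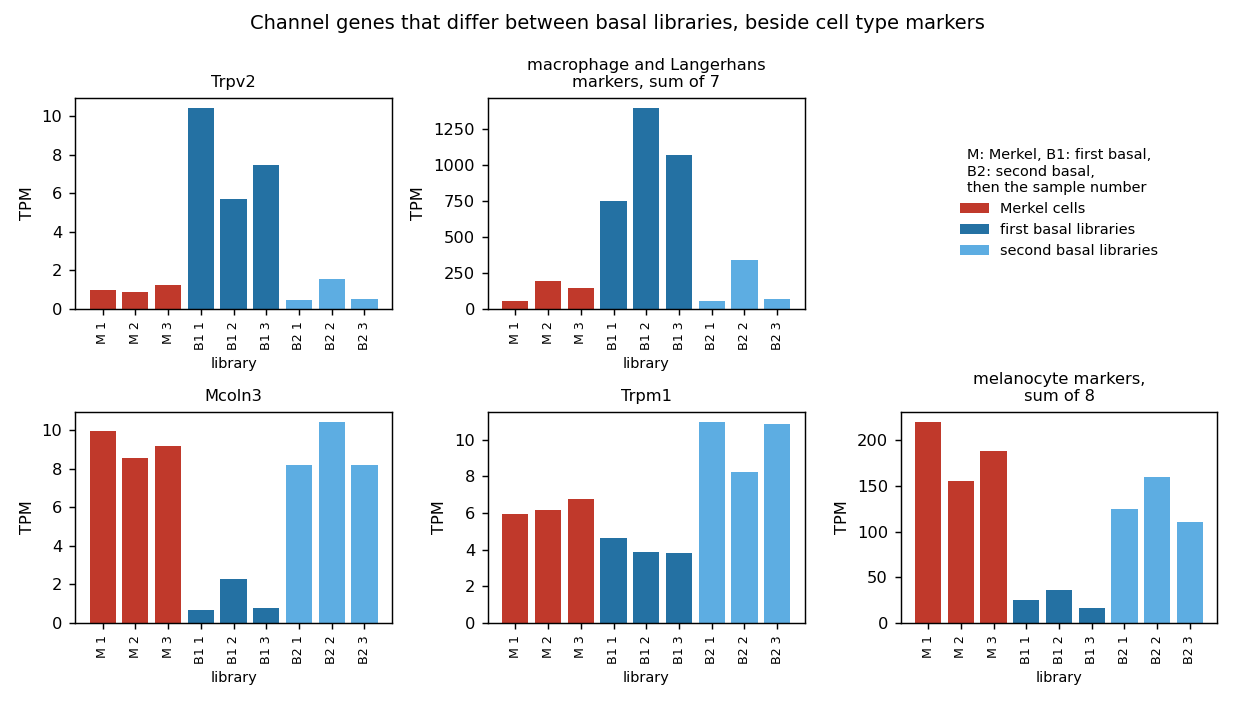
TPM of Trpv2, Mcoln3 and Trpm1 in each library beside the summed TPM of 7 macrophage and Langerhans cell markers and of 8 melanocyte markers; each bar is 1 library and each vertical axis starts at 0. Trpv2 and the macrophage sum are high in the first basal libraries, and Mcoln3 and the melanocyte sum in the second basal and Merkel libraries.

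The remaining genes were low throughout: 17 of the 34 stayed under 1 TPM in every library and 7 of these under 0.1. Those 7 include the pain and temperature channels Trpa1 (listed at 0 in 8 of 9 libraries and at 0.01 in the other) and Trpm8 (up to 0.08 TPM). The capsaicin receptor Trpv1 reached 0.12 TPM in 1 basal library. Trpm2, a channel of immune cells opened by ADP-ribose, was at 0.13, 0.05 and 0.06 TPM in Merkel and 0.18 to 0.52 in basal libraries. Trpm3, a heat and steroid sensor, was at 0.14, 0.26 and 0.24 TPM in Merkel and 0 to 0.03 in basal libraries. With no filter and a pseudocount of 0.1 limma called Trpm2 lower (-1.45 ± 0.28) and Trpm3 higher (1.54 ± 0.22), both from levels under 1 TPM.

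Of the TRPC genes other than Trpc1, Trpc4 was at 0.36 to 0.64 TPM in Merkel and 0.10 to 0.46 in basal libraries, which overlap, and Trpc5, Trpc6 and Trpc7 were under 0.1 everywhere. Trpc2, a pheromone channel, was at 0.66, 0.34 and 0 TPM in Merkel libraries and at 0.37 in 1 of 6 basal libraries, but it overlaps Xndc1 and Xntrpc on the same strand, so its value is uncertain. The taste channel Trpm5 (0.11 to 0.34 TPM in Merkel, 0 to 0.36 in basal libraries) overlaps Tssc4, and Pkd2l2 (0.12 to 0.22 against 0.17 to 0.47 TPM) overlaps Fam13b, each on the opposite strand. Mcoln2 was at 0.26 to 0.43 TPM in Merkel and 0.16 to 0.49 in basal libraries. Trpm6, Trpv5 and Pkd2l1, channels of the kidney, gut or taste cells, reached at most 0.16, 0.05 and 0.08 TPM.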

How the data were processed

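Total RNA of 9 sorted cell libraries (3 Merkel, 6 basal) was sequenced with a stranded kit and paired 125-base reads, per the labels' protocols. The submitters' processing notes name Trimmomatic, STAR, RSEM and mm10. Tool versions, gene annotation and strand setting: not given in the sources used here. Deposited values are TPM for each gene, which keep no depth, so no counting interval is given. Symbols and coordinates come from GENCODE M21 (GRCm38), matched without version for 49326 of 49672 rows. The members and lists were chosen with earlier results of these data known.

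TPM were transformed to log2(TPM + 1), a pseudocount of 1, and the 2 basal libraries of a number averaged. Genes at 1 TPM or more in at least 3 of 6 values were tested with limma 3.58.1 (R 4.3.3, variance trend, two-sided, Benjamini-Hochberg adjustment over all tested genes). Second basal libraries were compared with first in the same way. All 34 channel genes are named, and of other lists the called members with the smallest adjusted p, the most abundant member, and members of counts of 5 or fewer. Other genes named beside them are examples chosen after their values were seen. SDs are over 3 sample numbers. The p-values measure only the spread between these numbers, which may be technical. Deviations of same-numbered Merkel and basal values from their group means correlated over tested genes (0.385, 0.357 and 0.202). Those of second and first basal libraries did too (0.505, 0.54 and 0.414), so the numbers were taken to pair the samples. The main fits still had no term for the number, so their SEs and p-values are those of unpaired fits. With the number as a replicate block, second against first gave 640 genes called in place of 586, with 2 channel genes higher and 1 lower. The fit was tested on simulated data beforehand. Tables and plots used Python 3.11.15, pandas 2.3.3 and matplotlib 3.10.9.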

Additional observations from a re-analysis of the deposited data

Results flagged for a closer look

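Between second and first basal libraries 3 channel genes differed by a limma test: Mcoln3 (log2 fold change 2.22), Trpm1 (1.11) and Trpv2 (-2.28). The difference of Merkel cells from basal keratinocytes therefore changes with the set of basal libraries for these genes. Of 33 channel genes with any basal value above 0, 6 had a basal library far above the other 5. Chance flags about 1 in 20, but that rate need not hold for values listed at or near 0, so no excess can be read from the count. All 6 were genes of low level, with the highest basal library at 0.37 TPM for Trpc2, 0.02 for Trpc7, 0.03 for Trpm3, 0.12 for Trpv1, 0.47 for Pkd2l2 and 0.03 for Asic2.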

How the results depend on the processing

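Asic1, Asic2, Asic4 and Hcn2 were called higher in every alternative in which they were tested. This says little for the last 3, near 0 in all basal libraries, and Asic1 too passed the main filter through its Merkel values. A filter at 5 TPM left out all 4, and a filter on the mean over all values left out Asic2. With the sample number as a replicate block (paired fit) the same 5 channel genes were called higher, 0 lower, and 1719 genes in all. The number of channel genes called higher was 1 with the filter at 5 TPM (Mcoln3). The number called lower, 0, became 2 with a pseudocount of 0.1, 1 against the first basal libraries, 1 with TPM rescaled over protein-coding genes, 0 to 1 with a replicate left out, and 3 with no filter and pseudocount 0.1, chosen after seeing the data. Genes called over the whole table (1667; 938 higher and 729 lower) were 935 (486 and 449) with the filter at 5 TPM and 4218 (1989 and 2229) with no filter and pseudocount 0.1; the lower calls were 1281 with pseudocount 0.1 and 442 with median-ratio scaling. For second against first basal libraries, leaving out a replicate gave 2 to 741 genes called in place of 586 (1 to 122 higher, 1 to 619 lower), 0 to 2 channel genes higher and 0 to 1 lower, and pseudocount 0.1 gave 147 genes higher in place of 91. The causes were not tested.

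Values near 0 changed sign. For Merkel against basal, Trpm1 was 0.52 against the first basal libraries, 0.14 with median-ratio scaling, 0.0467 over protein-coding genes and -0.11 to 0.0351 with a replicate left out, and Pkd2 was 0.15, 0.16, 0.0667 and -0.0205 to 0.0086. For second against first, median-ratio scaling gave -0.0354 for Mcoln1 and -0.0188 for Trpm7, and leaving out a replicate gave -0.038 to 0.0852 for Mcoln1, -0.0446 to 0.10 for Trpm7 and -0.13 to 0.10 for Trpv6.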
